A study of Mus musculus with 42 samples.

Results

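The phagocyte NADPH oxidase is described here by 5 of its genes, Cybb, Cyba, Ncf1, Ncf4 and Rac2, which were taken by symbol from a count table of 54446 genes. All 5 were among the 15574 genes with enough counts for a test. Whole livers of 42 female APOE*3-Leiden mice, taken at week 32, each gave 1 bulk RNA library. APOE*3-Leiden mice carry a human apolipoprotein E variant that gives them a human-like lipoprotein profile, and all groups carried it. The chow group (n = 10) stayed on maintenance chow as the healthy reference. The WTD group (n = 16) received a Western-type diet with 15% cocoa butter, 40.5% sucrose and 1% cholesterol, to which 0.05% sodium cholate was added from week 22. The WTD with atorvastatin group (n = 16) received the same diet with atorvastatin, an inhibitor of HMG-CoA reductase. The dose was 3 mg/kg per day, raised to 4.5 mg/kg per day at week 5. Both diet groups had first had a run-in of 3 weeks on the diet alone. Mice on the diet were 8 to 14 weeks old at the start, and no age was given for the chow group.

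The enzyme sits in the membrane of phagocytes and moves electrons from NADPH to oxygen, which yields superoxide. Cybb encodes gp91phox (NOX2), the subunit that carries the electrons, and Cyba encodes p22phox, its partner in the membrane, which also pairs with several other NOX enzymes. Ncf1 (p47phox) and Ncf4 (p40phox) wait in the cytosol and join the membrane pair after phosphorylation, together with a Rac GTPase, which in blood-derived cells is largely Rac2. In the liver the enzyme is known above all from Kupffer cells, recruited macrophages and neutrophils.

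On the genome build GRCm38, with the GENCODE vM21 annotation, Cybb lies at chrX:9435252-9487771, Cyba at chr8:122424776-122432930, Ncf1 at chr5:134220053-134229625 and Rac2 at chr15:78559167-78572783, all 4 on the minus strand. Ncf4 lies at chr15:78244801-78262580 on the plus strand. All 5 are protein-coding genes. RefSeq promoters (build GRCm38.p6, from 250 bases before to 50 after the start of transcription) were found for 3 of the 5 and are shown because these genes rose together. The capitals mark the matches, on either strand, to 4 short motifs, the PU.1 core GAGGAA, the CCAAT box CCAAT, the TATA box TATAAA and the GC box GGGCGG, and no match overlapped another.
Cybb, chrX:9469275-9469574, minus strand: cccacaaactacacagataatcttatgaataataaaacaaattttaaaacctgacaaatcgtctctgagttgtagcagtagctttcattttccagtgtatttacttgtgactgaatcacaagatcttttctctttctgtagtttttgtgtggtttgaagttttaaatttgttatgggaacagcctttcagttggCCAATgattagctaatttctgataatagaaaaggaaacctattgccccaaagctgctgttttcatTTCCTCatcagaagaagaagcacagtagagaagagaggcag
Cyba, chr8:122432891-122433190, minus strand: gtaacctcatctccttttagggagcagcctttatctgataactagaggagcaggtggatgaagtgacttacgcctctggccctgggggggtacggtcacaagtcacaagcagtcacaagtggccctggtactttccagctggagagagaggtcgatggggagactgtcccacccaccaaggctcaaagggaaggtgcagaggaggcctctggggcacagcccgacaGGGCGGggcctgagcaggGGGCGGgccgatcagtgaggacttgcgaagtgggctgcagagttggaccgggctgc
Ncf1, chr5:134229576-134229875, minus strand: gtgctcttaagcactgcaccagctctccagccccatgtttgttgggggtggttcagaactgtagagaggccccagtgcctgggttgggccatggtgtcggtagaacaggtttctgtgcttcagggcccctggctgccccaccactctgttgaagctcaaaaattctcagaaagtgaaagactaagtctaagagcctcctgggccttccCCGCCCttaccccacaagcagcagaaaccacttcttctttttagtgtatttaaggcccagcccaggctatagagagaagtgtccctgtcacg
The windows of these genes did not share a motif across all 3. Cybb held 1 CCAAT box, which began 56 bases before the start, and 1 PU.1 core on the opposite strand, which began at base 10 after it. Cyba held 2 GC boxes, beginning 24 and 6 bases before the start, and Ncf1 held 1, beginning 42 bases before it on the opposite strand. Of all 32851 promoters of this length, 28.3% held the PU.1 core, 37.4% the CCAAT box, 13.6% the TATA box and 35.7% the GC box. The RefSeq start of Cybb lies inside the gene span given by GENCODE, so this window is 1 of the starts of the gene.

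The total gene count of a mouse lay between 15661381 and 36224054. Levels are given as CPM, the counts of a gene scaled to a common library size. In 9 libraries over 20% of the genes at a mean of 1 to 2 CPM had no count at all. Of these sparse libraries 3 were from chow, 5 from WTD and 1 from WTD with atorvastatin, and values without them are given beside the results whose call or size they changed most. The tissue was liver by its markers, since the 8 hepatocyte genes (such as Alb) summed to 51310 to 161170 CPM. The 9 macrophage markers (such as Cd68, Adgre1 and Lyz2) summed to 263 to 398 CPM on chow, 1373 to 3116 CPM on WTD and 1105 to 2222 CPM with atorvastatin. The 10 neutrophil markers summed to at most 46.5 CPM in any mouse, with a median sum of 11.0 CPM on chow and 29.1 CPM on WTD. Of these, Ly6g and Mpo had a median of 0.0 CPM in each group, but 4 of the 5 tested markers rose on WTD. These low levels are not read as absence of neutrophils.

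The 5 oxidase genes were higher on WTD than on chow, by 3.33-fold to 6.70-fold. With atorvastatin, Cyba was 42.0% lower than on WTD, while the other 4 were 16.3% to 22.8% lower and did not pass the test. Against chow all 5 were still higher with atorvastatin, by 2.59-fold to 5.60-fold. Ranges of single mice are given below, and how many of all tested genes had ranges without overlap between groups was not counted. In whole liver, more phagocytes and more RNA per phagocyte cannot be told apart.

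Cybb, the electron-carrying subunit, had on chow a lowest level of 8.56, a median of 16.2 and a highest level of 21.9 CPM. On WTD these were 53.9, 108 and 131 CPM, so that the lowest WTD mouse was above the highest chow mouse. With atorvastatin they were 63.4, 87.5 and 120 CPM, and this range lay within that of WTD. Without the sparse libraries the lowest WTD mouse was at 95.9 CPM, and 10 of 15 atorvastatin mice were below it. The level was 16.0 ± 4.10 CPM (SD, n = 10) on chow, 107 ± 19.1 CPM (SD, n = 16) on WTD and 89.7 ± 17.6 CPM (SD, n = 16) with atorvastatin. Cybb rose by a log2 fold change of 2.74 ± 0.13 (SE) on WTD, with an edgeR adjusted p of 1.5e-22. With atorvastatin the log2 fold change was -0.26 ± 0.10 (SE) against WTD, with an edgeR adjusted p of 0.094, and 12 of 16 mice were below the WTD median. The 95% interval of this change ran from -0.46 to -0.05. Without the 9 sparse libraries it was -0.32 with an edgeR adjusted p of 0.0073, so the call for Cybb depended on these libraries.

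Cyba, the membrane partner, ranged from 8.75 to 26.5 CPM on chow, with a median of 17.9 CPM. On WTD it ranged from 39.1 to 116 CPM, with a median of 81.1 CPM, and no WTD mouse overlapped with chow. With atorvastatin it ranged from 34.0 to 60.8 CPM, with a median of 48.7 CPM. All 16 atorvastatin mice were below the WTD median and 3 were below the lowest WTD mouse, and all were above the highest chow mouse. The means were 17.9 ± 5.02 CPM (SD, n = 10), 83.1 ± 19.8 CPM (SD, n = 16) and 48.1 ± 8.75 CPM (SD, n = 16) on chow, WTD and WTD with atorvastatin. Cyba rose by a log2 fold change of 2.22 ± 0.15 (SE) on WTD (edgeR adjusted p = 9.5e-18). It fell with atorvastatin by a log2 fold change of -0.79 ± 0.12 (SE) against WTD (edgeR adjusted p = 1.5e-05), with a 95% interval from -1.02 to -0.55. Without the sparse libraries the lowest of 11 WTD mice was at 69.6 CPM and the highest of 15 atorvastatin mice at 60.8 CPM. The WTD mouse at 39.1 CPM was among those left out, so this gap depended on these libraries.

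Ncf1, the organizer of the cytosolic complex, ranged from 4.09 to 11.5 CPM on chow (median 8.63 CPM), from 14.5 to 50.8 CPM on WTD (median 27.3 CPM) and from 14.2 to 31.1 CPM with atorvastatin (median 23.1 CPM). Chow did not overlap with either of the other groups, and 1 WTD mouse stood well above the rest. The means were 8.36 ± 2.08 CPM (SD, n = 10), 27.9 ± 8.50 CPM (SD, n = 16) and 22.4 ± 4.59 CPM (SD, n = 16). Ncf1 rose on WTD by a log2 fold change of 1.74 ± 0.16 (SE), with an edgeR adjusted p of 2.1e-13. Its log2 fold change with atorvastatin was -0.32 ± 0.13 (SE) against WTD, with an edgeR adjusted p of 0.094 and a 95% interval from -0.58 to -0.06. The 3' end of Ncf1 overlaps by 4303 bases with Gtf2ird2 on the other strand, and Cyba lies within the span of Gm20388, also on the other strand. The libraries were strand-specific, and the counting rule for strand was not given in the sources used here.

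Ncf4, which binds phosphoinositides and stabilizes the cytosolic complex, was the weakest of the 5 by counts. It ranged from 0.70 to 9.94 CPM on chow (median 4.48 CPM), from 8.55 to 28.4 CPM on WTD (median 16.5 CPM) and from 8.99 to 19.7 CPM with atorvastatin (median 12.2 CPM). Chow was the most uneven group, and 1 mouse each of WTD and of WTD with atorvastatin lay within its range. The means were 5.05 ± 3.28 CPM (SD, n = 10), 17.0 ± 5.24 CPM (SD, n = 16) and 13.1 ± 3.01 CPM (SD, n = 16). Ncf4 rose on WTD by a log2 fold change of 1.75 ± 0.24 (SE), with an edgeR adjusted p of 4.1e-08. With atorvastatin the log2 fold change against WTD was -0.37 ± 0.20 (SE), with an edgeR adjusted p of 0.24 and a 95% interval from -0.77 to 0.02.

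Rac2, the GTPase of blood-derived cells, ranged from 8.32 to 30.5 CPM on chow (median 10.0 CPM), from 24.0 to 110 CPM on WTD (median 39.1 CPM) and from 23.2 to 46.9 CPM with atorvastatin (median 34.1 CPM). A single chow mouse, with a sparse library, was at 30.5 CPM and the next at 15.8 CPM. On WTD 2 mice stood apart at 78.5 and 110 CPM, and the other 14 were at or below 43.4 CPM. The means were 12.6 ± 6.65 CPM (SD, n = 10), 43.6 ± 21.2 CPM (SD, n = 16) and 35.4 ± 6.05 CPM (SD, n = 16). Rac2 rose on WTD by a log2 fold change of 1.80 ± 0.21 (SE), with an edgeR adjusted p of 6.8e-10. Without the high chow mouse this was 2.04, without the sparse libraries 2.14 and without the highest WTD mouse 1.64. Its log2 fold change with atorvastatin was -0.30 ± 0.17 (SE) against WTD, with an edgeR adjusted p of 0.27 and a 95% interval from -0.63 to 0.03. Without the highest WTD mouse this value was -0.15 (edgeR adjusted p = 0.59), and without the sparse libraries it was -0.45 (edgeR adjusted p = 0.036).

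**Figure D1:**
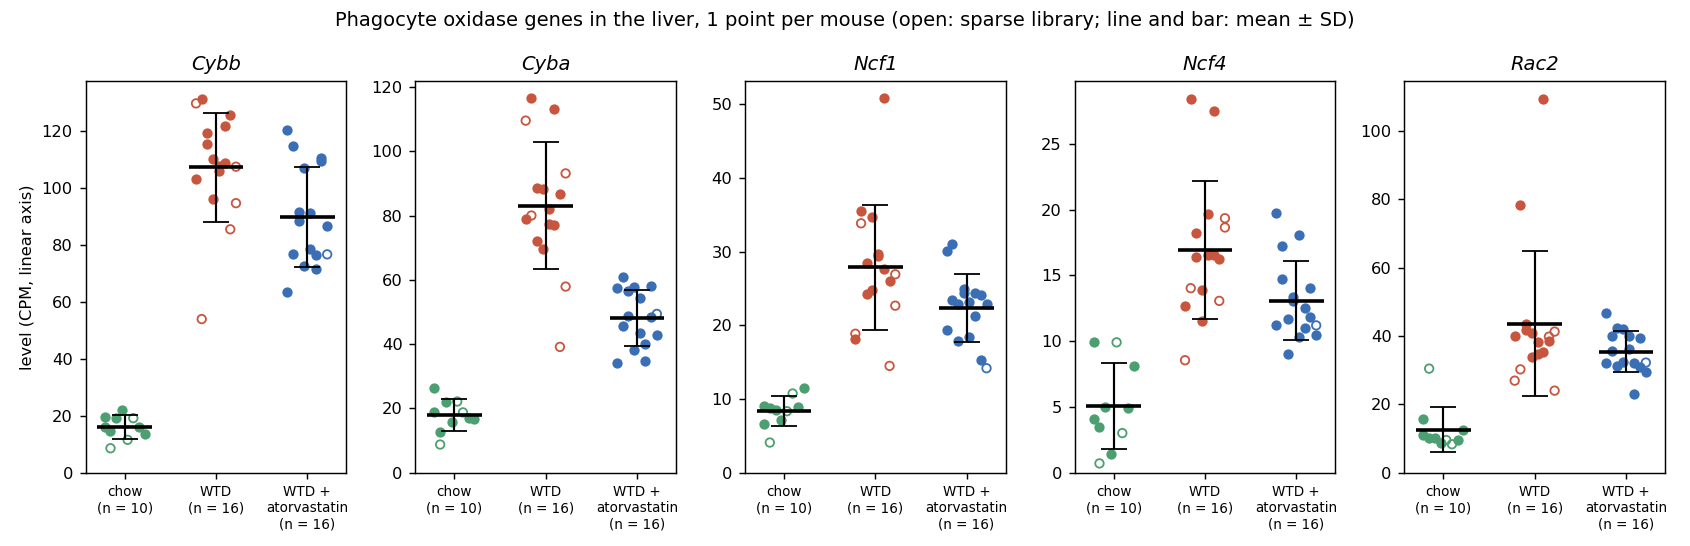
Levels of the 5 oxidase genes in CPM on linear axes that start at 0, with 1 point per mouse for chow (n = 10), WTD (n = 16) and WTD with atorvastatin (n = 16), open points for sparse libraries, and the mean ± SD in black. Cyba falls from a mean of 83.1 CPM on WTD to 48.1 CPM with atorvastatin, and single mice stand apart for Rac2 at 30.5 CPM on chow and at 110 CPM on WTD.

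All 5 members were called higher on WTD than on chow, where 17.5% of all tested genes were called higher. Against chow, all 5 were also called higher with atorvastatin, where 14.2% of all genes were called higher. Their log2 fold changes were then 2.49 ± 0.13 (SE) for Cybb, 1.43 ± 0.14 for Cyba, 1.42 ± 0.16 for Ncf1, 1.37 ± 0.24 for Ncf4 and 1.50 ± 0.20 for Rac2, with edgeR adjusted p values of at most 7.9e-06. These comparisons share the chow mice. In atorvastatin against WTD, 1 of the 5 was called lower, where 2.26% of all genes were called lower.

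Rac1, the ubiquitous Rac, which can take the place of Rac2, rose by a log2 fold change of 0.24 ± 0.05 (SE) on WTD (edgeR adjusted p = 0.00019), from 126 ± 6.10 CPM (SD, n = 10) to 149 ± 10.1 CPM (SD, n = 16). With atorvastatin Rac1 was at 145 ± 11.0 CPM (SD, n = 16), a log2 fold change of -0.05 ± 0.05 (SE) against WTD. Against chow this was 0.19 ± 0.05 (SE), with an edgeR adjusted p of 0.0031, and the call was lost without the sparse libraries, with upper-quartile scaling and with only these 2 groups fitted (edgeR adjusted p of 0.014, 0.012 and 0.011).

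**Figure D2:**
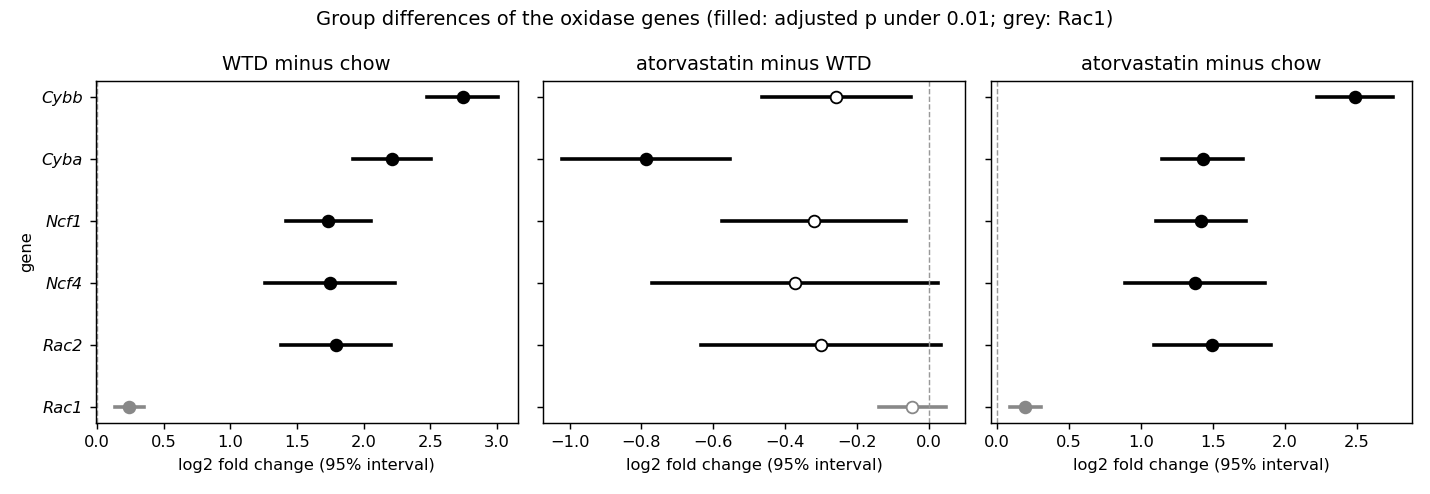
Log2 fold changes with 95% intervals of the 5 members (black) and of Rac1 (grey) in the 3 comparisons, with filled points where the edgeR adjusted p was under 0.01. Every point is filled in both comparisons with chow, though that of Rac1 with atorvastatin did not hold in 3 alternatives, and in atorvastatin against WTD the filled point is Cyba at -0.79.

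To ask whether the members moved by the same amount, the log2 ratio of each pair was compared between groups by a two-sided permutation test, with p values adjusted over all 30 tests. In atorvastatin against WTD, all 4 ratios that involve Cyba changed and the other 6 did not pass. Cyba fell relative to Cybb by 0.51 on the log2 scale, since the ratio of Cybb to Cyba went from 0.38 ± 0.39 (SD, n = 16) to 0.89 ± 0.14 (SD, n = 16), with an adjusted permutation p of 2e-04. Relative to Ncf1, Cyba changed by -0.48 (adjusted permutation p = 0.00472). Relative to Ncf4 it changed by -0.42 (adjusted permutation p = 0.0151), and relative to Rac2 by -0.56 (adjusted permutation p = 0.00195). Among the other 6 ratios the adjusted permutation p was at least 0.551.

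On WTD against chow, Cybb rose more than most of the others. The ratio of Cybb to Ncf1 rose by 1.04 on the log2 scale (adjusted permutation p = 3e-04), that to Rac2 by 0.96 (adjusted permutation p = 0.003) and that to Cyba by 0.54 (adjusted permutation p = 0.00653). The ratio of Cybb to Ncf4 differed by 0.74 (adjusted permutation p = 0.0666), with an SD of 1.15 on chow. The ratio of Cyba to Ncf1 rose by 0.51 (adjusted permutation p = 0.0151), and without the sparse libraries by 0.48 (adjusted permutation p = 0.054). The ratios among Ncf1, Ncf4 and Rac2 differed by -0.30 to 0.22, none of which passed. In atorvastatin against chow, the ratio of Cybb to Cyba had moved by 1.05 (adjusted permutation p = 0.00015), while that of Cyba to Ncf1 differed by 0.03 (adjusted permutation p = 0.86).

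**Figure D3:**
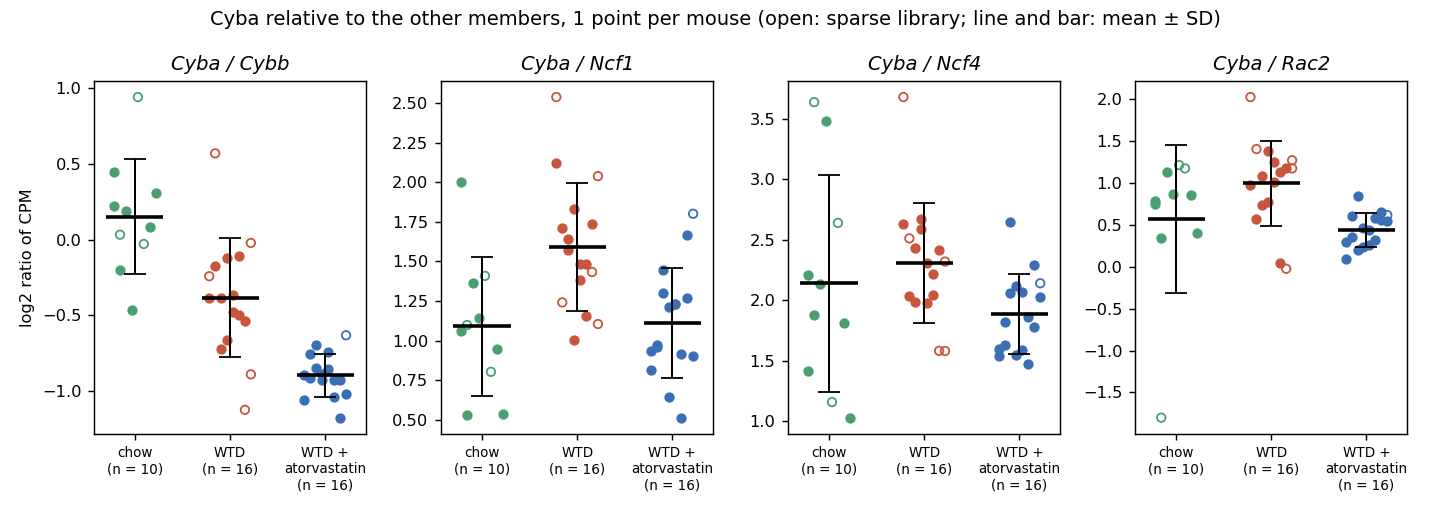
Log2 ratio of the CPM of Cyba to that of each other member, with 1 point per mouse, open points for sparse libraries and the mean ± SD in black. Values were taken without the prior count of the tests. In each panel the atorvastatin mean lies below the WTD mean, and the Cyba to Cybb ratio falls from chow to WTD and again with atorvastatin.

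The members were also set against the 9 macrophage markers (Cd68, Adgre1, Csf1r, Lyz2, Ctss, Mpeg1, Msr1, Cd14 and Itgax), all of which rose on WTD and 5 of which fell with atorvastatin. The measure was the log2 CPM of the member minus the mean log2 CPM of the markers, and the p values of 15 two-sided permutation tests were adjusted together. Cybb kept pace with the markers on WTD, with a difference between groups of 0.09 (adjusted permutation p = 0.474). Relative to the markers, Ncf1 fell by 0.96 on WTD (adjusted permutation p = 3.75e-05), Rac2 by 0.88 (adjusted permutation p = 0.00394), Ncf4 by 0.65 (adjusted permutation p = 0.04) and Cyba by 0.45 (adjusted permutation p = 0.0012). Without the sparse libraries, the value for Ncf4 was -0.71 with an adjusted permutation p of 0.0651, and that for Rac2 was -0.58 with an adjusted permutation p of 0.0341.

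With atorvastatin, the members parted in sign relative to the mean of the same markers. Single markers moved unequally, such as Cd14 from a mean of 45.9 to 23.5 CPM and Adgre1 from 74.5 to 57.9 CPM. The members were not tested against each marker alone. Cyba fell by 0.21 more than the mean of the markers did (adjusted permutation p = 0.00626). Cybb, in contrast, rose by 0.30 relative to the markers (adjusted permutation p = 3e-04). Without the sparse libraries these values were -0.25 (adjusted permutation p = 5e-04) for Cyba and 0.26 (adjusted permutation p = 0.00015) for Cybb. Ncf1 and Rac2 rose by 0.27 and 0.34 relative to the markers (adjusted permutation p = 0.0247 for each), and neither passed without the sparse libraries (adjusted permutation p = 0.0638 and 0.113). Ncf4 differed by 0.21 (adjusted permutation p = 0.105). The share of macrophages or of any other cell type in the tissue was not measured, and its part in these values was not tested.

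**Figure D4:**
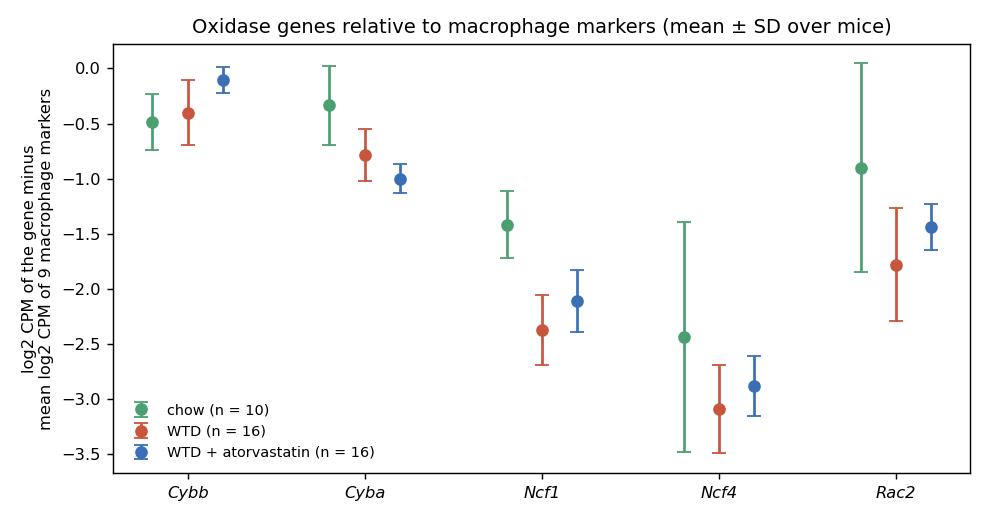
Log2 CPM of each member minus the mean log2 CPM of 9 macrophage markers, as mean ± SD over mice of chow (n = 10), WTD (n = 16) and WTD with atorvastatin (n = 16). From WTD to atorvastatin, Cybb moves up by 0.30 and Cyba moves down by 0.21.

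Levels per length were compared between genes as CPM per kilobase of exon. Cyba was the most abundant member in each group, with geometric means of 16.7 on chow, 77.7 on WTD and 45.7 with atorvastatin. Cybb came next on WTD (18.1) and with atorvastatin (15.2), so that the message of p22phox exceeded that of its partner in 16 of 16 mice of both diet groups. On WTD, Cyba was higher than Cybb by 2.10 ± 0.39 on the log2 scale (SD, n = 16), and with atorvastatin by 1.59 ± 0.14 (SD, n = 16). Both gaps passed an exact paired sign-flip permutation test with an adjusted p of 9.16e-05.

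Below this pair came Rac2, at 13.1 CPM per kilobase on WTD and 11.3 with atorvastatin, and then Ncf4 (8.09 and 6.38) and Ncf1 (7.33 and 6.01). Rac2 was lower than Cybb by 0.47 ± 0.51 on WTD (SD, n = 16, adjusted exact permutation p = 0.00598) and higher than Ncf4 by 0.69 ± 0.40 (SD, n = 16, adjusted exact permutation p = 0.000146). With the longest transcript as the length, this gap to Ncf4 was 0.26 on WTD (adjusted exact permutation p = 0.0286), and the gap of 0.82 with atorvastatin was 0.39. Ncf4 and Ncf1 did not differ beyond their spread in either group, with adjusted exact permutation p values of 0.183 and 0.312, but by the longest transcript Ncf4 exceeded Ncf1 in both by 0.26 and 0.21 (adjusted exact permutation p = 0.026 for each). On chow, Rac2 (3.77), Cybb (2.68), Ncf1 (2.23) and Ncf4 (2.00) followed Cyba, and no 2 neighbours among these 4 passed the test, with adjusted exact permutation p values of at least 0.0908. The gap between Cyba and Rac2 on chow was 2.14 ± 0.88 (SD, n = 10, adjusted exact permutation p = 0.0067). Reads of polyadenylated RNA can cover a gene unevenly, and the length used was the union of all annotated exons.

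Mice were compared within each group to see whether members varied together. Over the 16 atorvastatin mice, Cybb and Cyba rose and fell together, with 0.867 for Pearson's r and 0.885 for Spearman's rho (adjusted permutation p = 9e-04 and 3e-04), and r was 0.824 without the 2 mice farthest from the median of Cybb. Cyba and Rac2 had an r of 0.706 and a rho of 0.626 in the same mice (adjusted permutation p = 0.0261 and 0.109), and r was 0.609 without the 2 farthest mice. Over the 16 WTD mice, Cybb and Cyba had an r of only 0.375 and a rho of 0.424 (adjusted permutation p = 0.221 and 0.343). Whether the r of WTD and of atorvastatin differ was not tested. On WTD, Ncf4 and Rac2 had an r of 0.678 and a rho of 0.368 (adjusted permutation p = 0.043 and 0.378). This r was 0.524 without the 2 mice farthest from the median of Ncf4. The WTD mouse highest for Rac2 (110 CPM) was also the highest for Ncf1 (50.8 CPM). It was at 27.5 CPM for Ncf4 and was not among the 2 mice left out. Over the 10 chow mice, Cyba and Ncf4 had an r of 0.808 and a rho of 0.782 (adjusted permutation p = 0.043 and 0.109), and r was 0.451 without the 2 farthest mice. The other 26 of 30 correlations did not pass in Pearson's r. The sparse libraries bore on these values, since without them the correlation of chow was 0.569 and that of WTD 0.798 in the same pairs, with adjusted permutation p values of 0.235 and 0.0628.

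Across all 42 mice, with each gene's level taken as its deviation from the group mean, the 3 genes most like each member were ranked by Pearson's r. The genes most like Cyba were Basp1 (r = 0.786), Gngt2 (r = 0.773) and Cyth4 (r = 0.758), and without the sparse libraries these values were 0.776, 0.748 and 0.786 over 33 mice. The genes most like Rac2 were Fhod1 (r = 0.777), Cfp (r = 0.771) and Arrb2 (r = 0.708), of which Cfp encodes properdin, a plasma protein of the complement system, and these also changed little without the sparse libraries (0.723, 0.769 and 0.653). For Cybb they were Ankrd13d (r = 0.782), Enah (r = 0.773) and Ankrd55 (r = 0.753), but without the sparse libraries r was only 0.514, 0.413 and 0.486. For Ncf4 they were Milr1 (r = 0.733), Me2 (r = 0.731) and Hk2 (r = 0.727), which went to 0.598, 0.373 and 0.488. For Ncf1 they were Ankle1 (r = 0.655), Zfp462 (r = 0.640) and Apobr (r = 0.635), which went to 0.317, 0.327 and 0.638. Between members, Cybb and Cyba had the highest r over all mice, 0.582, and Cyba ranked 290 among 13643 genes by likeness to Cybb. This r was 0.702 without the sparse libraries, above those of the 3 genes named for Cybb. Cyba and Rac2 had an r of 0.134 over all 42 mice and of 0.667 over the 33 mice without a sparse library. Ncf4 and Rac2 went from 0.059 to 0.622, which was above the values of the 3 genes named for Ncf4. The order of likeness thus depended on these libraries.

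The genes next to the members on the chromosome did not share their direction as a rule. Ncf4 and Rac2 are 296586 bases apart on chromosome 15, and 8 tested genes lie between them. Of these, 4 were higher and 3 were lower on WTD. Csf2rb2 and Csf2rb, which encode beta chains of cytokine receptors of myeloid cells, rose by log2 fold changes of 2.96 ± 0.31 (SE) and 1.83 ± 0.16 (SE), with edgeR adjusted p values of 7.8e-11 and 1.8e-13. Kctd17 rose by 1.47 ± 0.20 (SE) and C1qtnf6 by 1.67 ± 0.38 (SE), with edgeR adjusted p values of 2.5e-08 and 0.00027. Tst and Mpst, sulfurtransferases that are abundant in liver, fell by log2 fold changes of -1.04 ± 0.10 (SE) and -1.09 ± 0.11 (SE), and Tmprss6, a hepatocyte protease, by -0.59 ± 0.08 (SE), with edgeR adjusted p values of at most 4.6e-09.

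The nearest tested genes on either side of Cyba are Mvd and Car5a. Mvd, an enzyme of the mevalonate pathway, lies 670 bases from Cyba on the same strand and fell on WTD by a log2 fold change of -2.85 ± 0.34 (SE), with an edgeR adjusted p of 3.4e-09, while Cyba rose. With atorvastatin Mvd changed by 1.06 ± 0.30 (SE) against WTD, with an edgeR adjusted p of 0.014, and without the sparse libraries by 0.70 (edgeR adjusted p = 0.11). Mvd was called under DESeq2 (1.02, DESeq2 adjusted p = 0.0052) and limma-voom (1.13, limma-voom adjusted p = 0.0027), so its call depended on the processing. Car5a, a mitochondrial carbonic anhydrase, lies much farther from Cyba, at chr8:121916126-121944904. It fell by -1.26 ± 0.20 (SE) on WTD and rose by 0.74 ± 0.18 (SE) with atorvastatin (edgeR adjusted p = 1e-06 and 0.003). Thus both of these genes moved against Cyba in the comparison with chow. The tested neighbours of Cybb (Xk and Dynlt3) and of Ncf1 (B230377A18Rik and Gtf2i) and the outer neighbours of Ncf4 (Ift27) and Rac2 (Gm36738) did not pass on WTD, nor did Il2rb, and the log2 fold changes of these 7 ran from -0.77 to 0.92.

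Partners of the enzyme were described by lists of known genes. The median log2 fold change over all tested genes was 0.03 on WTD and 0.002 with atorvastatin. Of all tested genes, 17.5% were called higher and 16.0% lower on WTD. With atorvastatin against WTD, 4.84% were called higher and 2.26% lower. These shares stand beside the counts of each list below. Of 9 genes of other NADPH oxidases 4 were tested, none was called in any comparison of the main analysis, and their median was 1.00 on WTD. Nox4, which is made in many cell types, was at 21.2 ± 7.22 CPM (SD, n = 10) on chow, 20.5 ± 5.75 CPM (SD, n = 16) on WTD and 22.4 ± 5.26 CPM (SD, n = 16) with atorvastatin. Nox1, Noxo1 and Noxa1 had log2 fold changes of 2.22, 0.64 and 1.35 on WTD (edgeR adjusted p = 0.04, 0.23 and 0.24), and Nox1 and Noxa1 were under 1 CPM on average in each group. With all mice, limma-voom called Noxa1 on WTD (3.43, limma-voom adjusted p = 0.0035), and without a filter on low counts 2 genes of the list were called. Noxa1 was also called on WTD without the sparse libraries (3.12, edgeR adjusted p = 0.0078), and Noxo1 was then at 1.01 (edgeR adjusted p = 0.021).

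Of the 3 tested chaperones and channels, Hvcn1, the proton channel that balances the charge moved by the oxidase, rose on WTD by a log2 fold change of 2.17 ± 0.32 (SE), with an edgeR adjusted p of 2.6e-07. With atorvastatin its log2 fold change was -0.88 ± 0.26 (SE), with an edgeR adjusted p of 0.016. Hvcn1 was called there under DESeq2 (-0.93, DESeq2 adjusted p = 0.003) and limma-voom (-0.71, limma-voom adjusted p = 2.8e-05). The same held with only these 2 groups fitted (-0.89, edgeR adjusted p = 6.4e-05), but not without the sparse libraries. Cybc1, which helps the membrane pair to be made, had log2 fold changes of 0.35 ± 0.11 (SE) on WTD and -0.21 ± 0.10 (SE) with atorvastatin, with edgeR adjusted p values of 0.01 and 0.17. It was called in both without the sparse libraries, at 0.45 and -0.33 (edgeR adjusted p = 5e-04 and 0.0057). With all mice, Cybc1 was called on WTD under DESeq2 (0.39, DESeq2 adjusted p = 0.0027) and RLE scaling (0.39, edgeR adjusted p = 0.005). Under limma-voom it was called in both, at 0.43 and -0.28 (limma-voom adjusted p = 0.00038 and 0.0018), so its call depended on the processing. Canx, a general chaperone of the endoplasmic reticulum, had -0.13 ± 0.07 (SE) on WTD, with an edgeR adjusted p of 0.14.

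Of 12 genes that switch Rac on or off, 9 rose on WTD and none fell, with a median log2 fold change of 1.53. Arhgap25, a GTPase-activating protein for Rac, rose by 2.65 ± 0.17 (SE), Vav1, an exchange factor of blood cells, by 2.06 ± 0.15 (SE), and Arhgdib, the GDP-dissociation inhibitor of blood cells, by 1.69 ± 0.12 (SE), with edgeR adjusted p values of at most 2.2e-16. With atorvastatin Arhgdib was the 1 gene of the list that fell, by a log2 fold change of -0.58 ± 0.10 (SE), with an edgeR adjusted p of 7.5e-05. Arhgap25 had -0.46 ± 0.13 (SE), with an edgeR adjusted p of 0.012, and the median of the list was -0.31.

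Of 14 kinases and lipid enzymes that act on the oxidase, 11 rose on WTD and 2 fell. Prkcd, a protein kinase C, rose by a log2 fold change of 1.53 ± 0.11 (SE), Pik3cd, a phosphoinositide kinase of blood cells, by 2.01 ± 0.15 (SE), and Syk, which signals below Fc receptors, by 1.63 ± 0.15 (SE), with edgeR adjusted p values of at most 2.3e-13. None of the 14 passed with atorvastatin, where Prkcb had -0.45 ± 0.17 (SE) and Mapk14 0.17 ± 0.06 (SE), with edgeR adjusted p values of 0.067 and 0.05.

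Of 16 receptors that can trigger the oxidase, 14 were tested, of which 12 rose and 1 fell on WTD, with a median log2 fold change of 2.16. Clec7a, the beta-glucan receptor dectin-1, rose by 3.75 ± 0.18 (SE), Fcgr1, a high-affinity receptor for IgG, by 2.92 ± 0.17 (SE), and Csf1r, the receptor of macrophage colony-stimulating factor, by 1.73 ± 0.09 (SE), with edgeR adjusted p values of at most 6.4e-20. With atorvastatin 4 fell, among them Tyrobp, an adaptor of activating receptors, by -0.73 ± 0.13 (SE) and Clec7a by -0.70 ± 0.13 (SE), with edgeR adjusted p values of 9.7e-05 and 2e-04. The other 2 were Fcer1g and Fcgr3, which are named after their values were seen. Csf1r is also 1 of the 9 macrophage markers, and Csf2rb is also a gene between Ncf4 and Rac2. Itgam and Fpr2 were listed at 0 in each mouse, which is not read as absence, since Itgam is a common gene of myeloid cells.

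Of 8 tested transcription factors of myeloid genes, 3 rose and 1 fell on WTD. Spi1, which encodes PU.1, rose by a log2 fold change of 1.60 ± 0.17 (SE) and Runx1 by 2.16 ± 0.26 (SE), with edgeR adjusted p values of 4.9e-11 and 6.7e-10, while Cebpa, which hepatocytes also make, fell by -0.32 ± 0.08 (SE), with an edgeR adjusted p of 0.00096. With atorvastatin none of the 8 passed, with -0.42 ± 0.20 (SE) for Runx1 and 0.16 ± 0.07 (SE) for Cebpa (edgeR adjusted p = 0.19 and 0.16). Cebpa was called without the sparse libraries, at 0.26 (edgeR adjusted p = 0.0092). Irf8 and Hoxa10 were listed at 0 in each mouse, and Irf8 lies within the span of Gm20388 on the same strand, so its count of 0 is not read as absence.

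The 14 genes that dispose of superoxide and peroxide moved in both directions. On WTD 3 rose and 6 fell, with a median log2 fold change of -0.12, where 17.5% of all tested genes were called higher and 16.0% lower. With atorvastatin against WTD, 4.84% of all tested genes were called higher. Sod1, the cytosolic superoxide dismutase, fell by -1.03 ± 0.09 (SE) and Gpx1, a glutathione peroxidase, by -0.72 ± 0.06 (SE), whereas Hmox1, heme oxygenase, rose by 1.56 ± 0.17 (SE), with edgeR adjusted p values of at most 2.6e-10. With atorvastatin Cat, which encodes catalase, rose by 0.55 ± 0.09 (SE), and Gpx4, which reduces lipid peroxides, fell by -0.51 ± 0.09 (SE), with edgeR adjusted p values of 2.7e-05 and 6.2e-05. Gpx3, named after its values were seen, also fell. Of the 8 hepatocyte markers, all fell on WTD. With atorvastatin 6 of these 8 rose and none fell, whereas 1 of the 14 disposal genes rose and 2 fell. The part of hepatocytes in these values was not tested.

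**Figure D5:**
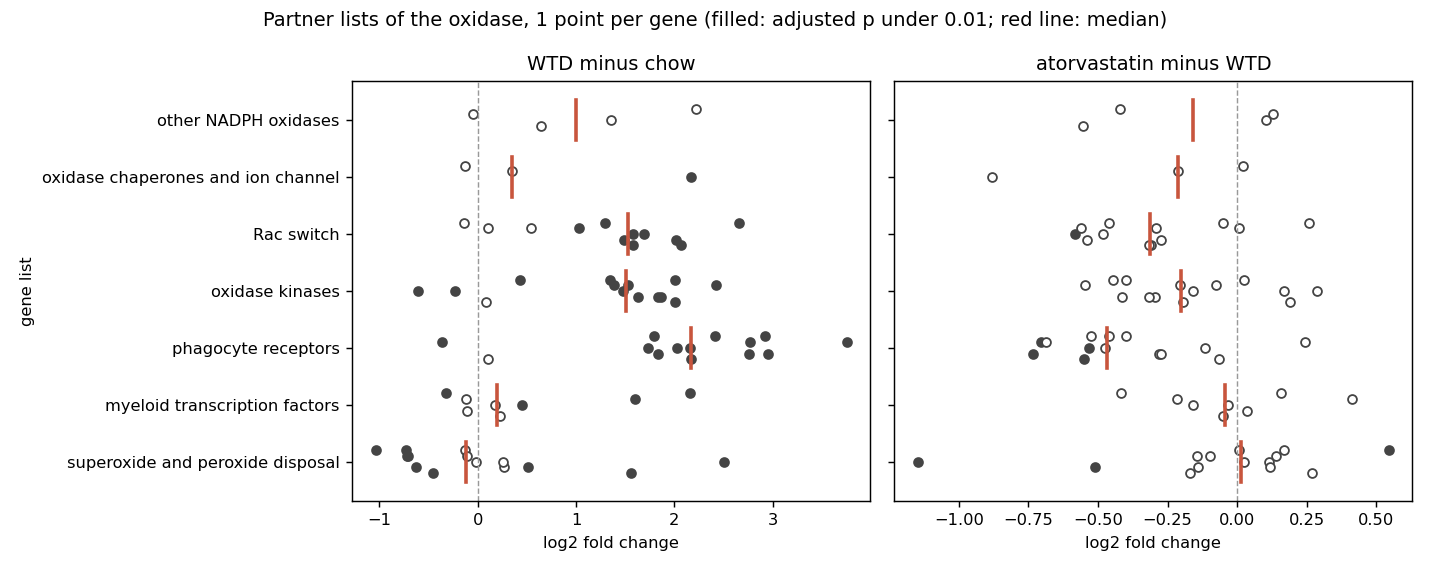
Log2 fold changes of 7 partner lists on WTD against chow (left) and with atorvastatin against WTD (right), with 1 point per tested gene, filled where the edgeR adjusted p was under 0.01, and a red line at the median of each list. The Rac switch, kinase and receptor lists have medians between 1.50 and 2.16 on the left, and the disposal list lies at -0.12.

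Markers of other cells were measured beside the members. Of all tested genes, 17.5% were called higher and 16.0% lower on WTD, and 4.84% higher and 2.26% lower with atorvastatin. A count of 1 in a list of 6 on WTD is near these shares and is not read as a change of that cell type. All 9 macrophage, all 6 lipid-associated macrophage and 3 of 6 Kupffer cell markers rose on WTD, with median log2 fold changes of 2.56, 3.35 and 1.08. With atorvastatin 5 of 9, 5 of 6 and 1 of 6 of these fell, and 1 Kupffer cell marker rose. Of 10 neutrophil markers 5 were tested and 4 rose on WTD, and none was called with atorvastatin. Of 6 monocyte and 6 dendritic cell markers 2 and 1 rose on WTD, and with atorvastatin 1 monocyte marker rose. This was Fn1, named after its values were seen, which encodes fibronectin, a plasma protein that hepatocytes make, and it was at 1475 ± 129 CPM (SD, n = 10) on chow. None of 8 T cell and 6 NK cell markers was called on WTD, and 1 of 6 B cell markers fell. Among structural cells, 4 of 7 stellate cell and all 5 cholangiocyte markers rose on WTD, and of 6 sinusoidal endothelium markers 1 rose and 2 fell. The summed level of the neutrophil markers was 6.78 to 29.1 CPM on chow, 20.7 to 46.5 CPM on WTD and 12.1 to 38.0 CPM with atorvastatin.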

How the data were processed

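Polyadenylated liver RNA from 42 female APOE*3-Leiden mice was sequenced with strand-specific, paired-end reads. The authors trimmed reads with Trimmomatic, aligned them to GRCm38 (GENCODE vM19) with STAR and counted them with HTSeq 0.6.1p1, and they deposited raw counts per gene, without normalization. The table of all mice equals the 42 single tables, and 0 of its columns belong to no sample. Lines that name no gene were left out (ambiguous 5.96%, no feature 2.28%, not unique 4.68% of read pairs on average). Symbols, positions and exon lengths came from GENCODE vM21, which matched 54409 of 54446 identifiers.

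The groups are those of the labels. Genes passing filterByExpr (minimum count 10, minimum total 15) were scaled by TMM and tested across all 42 mice with edgeR's quasi-likelihood test (edgeR 4.0.16, R 4.3.3, robust, no covariate) with Benjamini-Hochberg adjustment over 15574 genes. An adjusted p under 0.01 was called. SE is the log2 fold change divided by the root of the F statistic. Ratios, marker-relative levels and correlations used log2 CPM (prior count 2) and 100000 permutations, two-sided (smallest p 1e-05), called at an adjusted p under 0.05. The order of levels used exact paired sign flips. Python 3.11.15, numpy 2.4.6, pandas 2.3.3 and scipy 1.17.1 were used. Simulated WTD against chow with 15574 genes made calls for 112 of the 200 genes given a true log2 fold change of 1, with 1 unchanged gene called. At a true log2 fold change of 0.5 it made calls for 54 of 200 genes, so smaller changes were often missed.

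Depth was 15661381 to 36224054 counts per mouse, and the lowest count of a member in any library was 11, for Ncf4 on chow. P-values of group comparisons weigh a difference between groups against the spread between mice. Those of the order of levels and of the correlations come from the mice within 1 group. In a sparse library, over 20% of genes at 1 to 2 CPM had no count, with up to 57.3% in a single library.

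Named genes were the 5 members, Rac1, the 3 genes of each partner list with the smallest p on WTD and the 2 with the smallest p with atorvastatin, the 3 genes most like each member by Pearson r (of genes with a mean of at least 1 CPM), and tested neighbours. The members and lists were chosen with earlier results of these data known. Alternatives were DESeq2 1.42.0, limma-voom (limma 3.58.1) with quality weights, RLE and upper-quartile scaling, other filters, dropping robust estimation or the 20 genes with most counts, fitting each pair of groups alone, other thresholds, the sparse share as covariate, leaving out sparse libraries or single mice, another prior count (0.5) and the longest transcript as length.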

Additional observations from a re-analysis of the deposited data

Results flagged for a closer look

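Rac2 in the chow group was flagged because 1 of 10 mice lay far from the others. This mouse was at 30.5 CPM, the next highest was at 15.8 CPM, and the gap was 0.661 of the whole range, above Dixon's 95% critical value for 10 samples. Its library was 1 of the 3 sparse chow libraries. Chance flags about 1 in 20 such groups, and 5 were tested. Without this mouse the log2 fold change of Rac2 was 2.04 on WTD and 1.74 with atorvastatin, both against chow.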

How the results depend on the processing

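No direction of a member turned in any alternative or when any of the 42 mice was left out, and all 5 stayed called against chow throughout. In atorvastatin against WTD, Cyba stayed called, with log2 fold changes of -0.84 to -0.78 over 12 alternatives and of -0.84 to -0.75 when single mice were left out, except where a log2 fold change of at least 1 was also asked for. Cybb was called under limma-voom (-0.37, adjusted p = 5.7e-05), without the sparse libraries (-0.32, adjusted p = 0.0073) and with the sparse share as a covariate (-0.37, adjusted p = 0.0079), of a range of adjusted p from 5.7e-05 to 0.099. Ncf1 (-0.32, adjusted p = 0.0041) and Ncf4 (-0.44, adjusted p = 0.0023) were called under limma-voom alone. The count of members called was thus 4 under limma-voom, 2 without the sparse libraries, 2 with the covariate, 1 in the main analysis and 0 with that demand on the fold change. The cause of these differences was not tested.

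Without the sparse libraries, 2 instead of 4 members differed from macrophage markers with atorvastatin. The correlations that passed numbered 0 instead of 1 on chow and 0 instead of 1 on WTD without these libraries, which also leaves fewer mice, and under RLE 2 on WTD and 3 instead of 2 with atorvastatin. Signs turned without them for 4 log2 ratios that had not passed (Cybb to Rac2 with atorvastatin against WTD 0.019522, Cyba to Ncf1 with atorvastatin against chow -0.011201, Ncf4 to Rac2 on WTD -0.14 and with atorvastatin against chow -0.20) and for 5 correlations of chow that had not passed (Cybb with Ncf1 -0.848, Cybb with Ncf4 -0.41, Cyba with Ncf1 -0.441, Cyba with Rac2 0.632, Ncf4 with Rac2 0.838). Counts of called list genes with atorvastatin ran over the alternatives from 0 to 2 for chaperones and channel (main 0), 0 to 6 for the Rac switch (main 1), 0 to 5 for kinases (main 0), 0 to 9 for receptors (main 4), 0 to 2 for transcription factors (main 0) and 1 to 7 for disposal genes (main 3). On WTD against chow, counts also moved for other oxidases (main 0, up to 2), chaperones and channel (main 1, up to 2), kinases (main 13, 7 with at least 10 counts in every mouse), transcription factors (main 4, down to 2) and disposal genes (main 9, down to 3), and among the markers of the members' cells for neutrophils (main 4, down to 1). The hepatocyte count was 3 to 8 (main 8) on WTD and 0 to 7 (main 6) with atorvastatin, and the macrophage count with atorvastatin 0 to 7 (main 5). No paired analysis was possible because the mouse numbers only name animals.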
